A study of Mus musculus with 6 samples.

Results

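The endothelial and mural cell miRNAs are a set of 10 mature miRNAs named for the cells of the blood vessel wall. Endothelium, the inner lining of vessels, is represented by mmu-miR-126a-3p and mmu-miR-126a-5p. The smooth muscle cells, pericytes and related mesenchymal cells around it are represented by 8 mural members, namely mmu-miR-143-3p, mmu-miR-143-5p, mmu-miR-145a-5p, mmu-miR-145a-3p, mmu-miR-199a-3p, mmu-miR-199a-5p, mmu-miR-199b-3p and mmu-miR-214-3p. The prefix mmu, for mouse, is left out from here on. They were taken by name from a table of 1522 mature miRNAs, of which 1147 had a miRBase name. The table held 9 of the 10, and miR-143-5p has no value here. For miR-199a-3p and miR-199b-3p the rows were identical in all 6 libraries, so 8 rows had values of their own.

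Small RNA was sequenced from hippocampal neural stem cells, which divide to give neurons and glia, of male C57BL/6J pups on postnatal day 3. In the exposed group, GDE, the dams had received the glucocorticoid dexamethasone intraperitoneally, 1 mg/kg each day between embryonic days E14.5 and E18.5. Dams of the Control group had received normal saline on those days. The library titles call these groups IUGR and Normal, each had 3 libraries, and the design text speaks of 3 independent litters. How many animals went into a library is not given in the sources used here. Values are RPM, in which the reads of a miRNA (here called tags) are scaled to a fixed library total, and each library rested on about 11751000 to 12385000 tags, of which 24.1% to 27.8% fell on the miRNAs of the table. miR-9-5p, a defining miRNA of neural progenitors, averaged 8389 ± 209 RPM in GDE libraries and 8427 ± 357 RPM in Control libraries (SD, n = 3 each). Of the 6 miRNAs on the neural progenitor list, 2 had positive and 4 negative log2 folds of GDE over Control, with a median of -0.01. On the neuron list 3 of 4 were positive and 1 negative, with a median of 0.05. The share of progenitors in each library was not tested.

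miRNAs are short RNAs cut from a hairpin precursor, and each arm of the hairpin (5p or 3p) can be loaded into a silencing complex, where its bases 2 to 8, the seed, pair with target mRNAs. miR-126 is made from Egfl7, a gene of endothelial cells, and supports vascular integrity and responses to VEGF. miR-143 and miR-145 come from a shared transcript of smooth muscle, where they favour the contractile state, and miR-199a and miR-214 come from Dnm3os, a non-coding RNA of mesenchymal tissue. In brain, the vessel wall is a minor source of RNA next to neural cells, so these miRNAs are used as marks of vascular cells in a preparation. In RNA from mixed cells, a change in the number of such cells and a change in the RNA per cell cannot be told apart.

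The mature sequences below show which members can be told apart by their reads and which would share targets. They are written from the 5′ end with the seed in capitals, and are from RefSeq on GRCm38.p6.
miR-126a-3p: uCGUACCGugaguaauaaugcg
miR-199a-5p: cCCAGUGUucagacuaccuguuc
miR-199a-3p: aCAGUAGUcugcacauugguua
miR-199b-3p: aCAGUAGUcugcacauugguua
miR-214-3p: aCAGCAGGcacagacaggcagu
miR-199a-3p and miR-199b-3p were the same sequence, and no read can be given to one rather than the other. The seed of miR-126a-3p was found in no other mature mouse miRNA among the RefSeq entries searched. These entries were incomplete, and lacked miR-126a-5p and miR-199b-5p among others. The seed of miR-214-3p was shared with miR-761, which has no value here. The arm of the Mir199b hairpin that lines up with miR-199a-5p differed by 1 base over 23, the substitution C10U, counted from the 5′ end of miR-199a-5p with its base first. That base lies outside the seed, which this arm of Mir199b therefore shares with miR-199a-5p. The sequences of the other members are not shown.

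Mir126a lies on chromosome 2 at 26591357 to 26591429 of the plus strand (GRCm38), within Egfl7. In GENCODE M21 it falls in an intron of the coding Egfl7 transcripts and in the exon of a retained-intron transcript. Its hairpin is shown because its arms are the whole endothelial class, with the 3p arm in capitals.
Mir126a: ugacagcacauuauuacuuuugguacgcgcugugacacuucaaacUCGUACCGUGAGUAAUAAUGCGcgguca
Mir199a-2 (chromosome 1, 162217814 to 162217923) and Mir214 (162223368 to 162223477) both lie on the plus strand in the exon of Dnm3os, inside an intron of Dnm3 on the opposite strand. Mir199a-1, which gives the same mature miR-199a, lies on chromosome 9 at 21496495 to 21496564 in an intron of Dnm2, and Mir199b lies on chromosome 2 at 32318460 to 32318569 in an intron of Dnm1. Each of these is also on the strand opposite its host. A value for miR-199a-5p is thus a sum over Mir199a-1 and Mir199a-2, and a value for miR-199a-3p a sum over these and Mir199b.

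Of the endothelial arms, miR-126a-3p was the most abundant member, at rank 101 of the table by mean level. The GDE libraries held 247.4, 306.1 and 447.8 RPM, against 329.8, 265.1 and 220.6 RPM in the Control libraries. GDE replicate 3 was the highest of all and Control replicate 3 the lowest, and the other 4 libraries of both groups were interleaved. The means were 333.8 ± 103.0 RPM in GDE and 271.8 ± 54.9 RPM in Control (SD, n = 3 each), and the fold on the log2(RPM + 1) scale was 0.27 (SE 0.26; adjusted p = 0.774 in limma). GDE replicate 3 carried most of this fold, which was 0.04 without it and 0.46 without GDE replicate 1. Counting error of the tags alone would give a coefficient of variation near 1.66%, and the 6 libraries varied by 26.8%.

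The passenger arm miR-126a-5p, which pairs with the 3p arm in the hairpin, was lower by an order of magnitude. It was at 17.5, 20.7 and 16.9 RPM in the GDE libraries, against 15.2, 15.0 and 11.2 RPM in the Control libraries. All 3 GDE libraries lay above all 3 Control libraries, but the gap between the nearest of them was smaller than the SD within either group. The log2 fold was 0.39 (SE 0.21; limma, adjusted p = 0.57, range 0.348 to 0.841 over 16 alternatives). The antisense hairpin Mir126b gave 5, 4 and 0 tags of miR-126b-3p in GDE, against 1, 5 and 4 tags in Control, and was not tested. GDE replicate 3, the highest for the 3p arm of miR-126a, was the lowest GDE library for the 5p arm.

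Among the mural members, miR-143-3p, a miRNA of smooth muscle and pericytes, was the most abundant at rank 188. It stood at 69.6, 62.5 and 88.9 RPM in GDE, against 61.2, 69.8 and 80.9 RPM in Control. The groups lay over each other, with replicate 3 the highest in both. The means of 73.7 ± 13.7 RPM in GDE and 70.6 ± 9.91 RPM in Control (SD, n = 3 each) gave 0.05 as the log2 fold (SE 0.23; adjusted p = 0.984 in limma). Its sign turned without GDE replicate 3 or Control replicate 1.

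miR-145a-5p, which comes from the same transcript and promotes smooth muscle differentiation, had the lowest unadjusted p of the members. It was at 5.09, 4.15 and 5.28 RPM in the GDE libraries, from 61, 49 and 64 tags, against 2.66, 2.42 and 3.23 RPM in the Control libraries, from 32, 30 and 38 tags. Each GDE library was above each Control library, and the within-group SDs of 0.606 RPM in GDE and 0.418 RPM in Control (n = 3 each) were smaller than the distance between the means of 4.84 and 2.77 RPM. The log2 fold was 0.63 (SE 0.19), and it did not pass the threshold in limma (adjusted p = 0.551, range 0.211 to 0.822 over 15 alternatives). Its limma p before adjustment was 0.0121, at rank 11 of 649, and the exact two-sided permutation p was 0.1, the smallest that 3 against 3 libraries allow. It was positive in all 15, between 0.22 with a pseudocount of 10 RPM and 0.90, and at this level the pseudocount of 1 RPM understates it. The tags of each group summed to 174 in GDE and 100 in Control, a ratio of 1.75 at equal depth, with an exact binomial 95% interval of 1.36 to 2.26 that covers counting error only. The other arm, miR-145a-3p, was at the edge of detection with 2 or 3 tags in every library, 8 in GDE and 6 in Control (ratio 1.34, exact binomial 95% interval 0.409 to 4.69), and was not tested.

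miR-199a-5p, a miRNA of fibroblasts and other mesenchymal cells, was at 41.3, 35.4 and 45.4 RPM in GDE, against 23.7, 30.4 and 36.3 RPM in Control. GDE replicate 2 lay just under Control replicate 3, and otherwise the GDE libraries were higher. The log2 fold was 0.44 (SE 0.24; limma, adjusted p = 0.57, range 0.466 to 0.838 over 16 alternatives), and 0.28 without Control replicate 1. The 3p arm of the same hairpins, shared with miR-199b, had its groups mixed, at 4.17, 5.08 and 8.0 RPM in GDE, against 7.56, 5.01 and 6.47 RPM in Control. Its log2 fold of -0.15 (SE 0.26; limma, adjusted p = 0.906) was the only negative one among the rows with values of their own, and it was 0.03 without GDE replicate 1.

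miR-214-3p, from the Dnm3os transcript, was low, at 2.25, 1.35 and 1.48 RPM in GDE, against 1.41, 1.29 and 1.70 RPM in Control. GDE replicate 1 was the highest and the other 5 libraries lay close together, from 16 to 20 tags each. The libraries varied by 22.6%, and counting error alone would give 22.9%, so they showed no spread beyond counting error. The log2 fold was 0.12 (SE 0.21, adjusted p = 0.906 in limma). Its tags summed to 61 in GDE and 53 in Control, a ratio of 1.16 at equal depth. The exact binomial interval of this ratio, at the level used above, was 0.789 to 1.71 and covers counting error only.

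**Figure D1:**
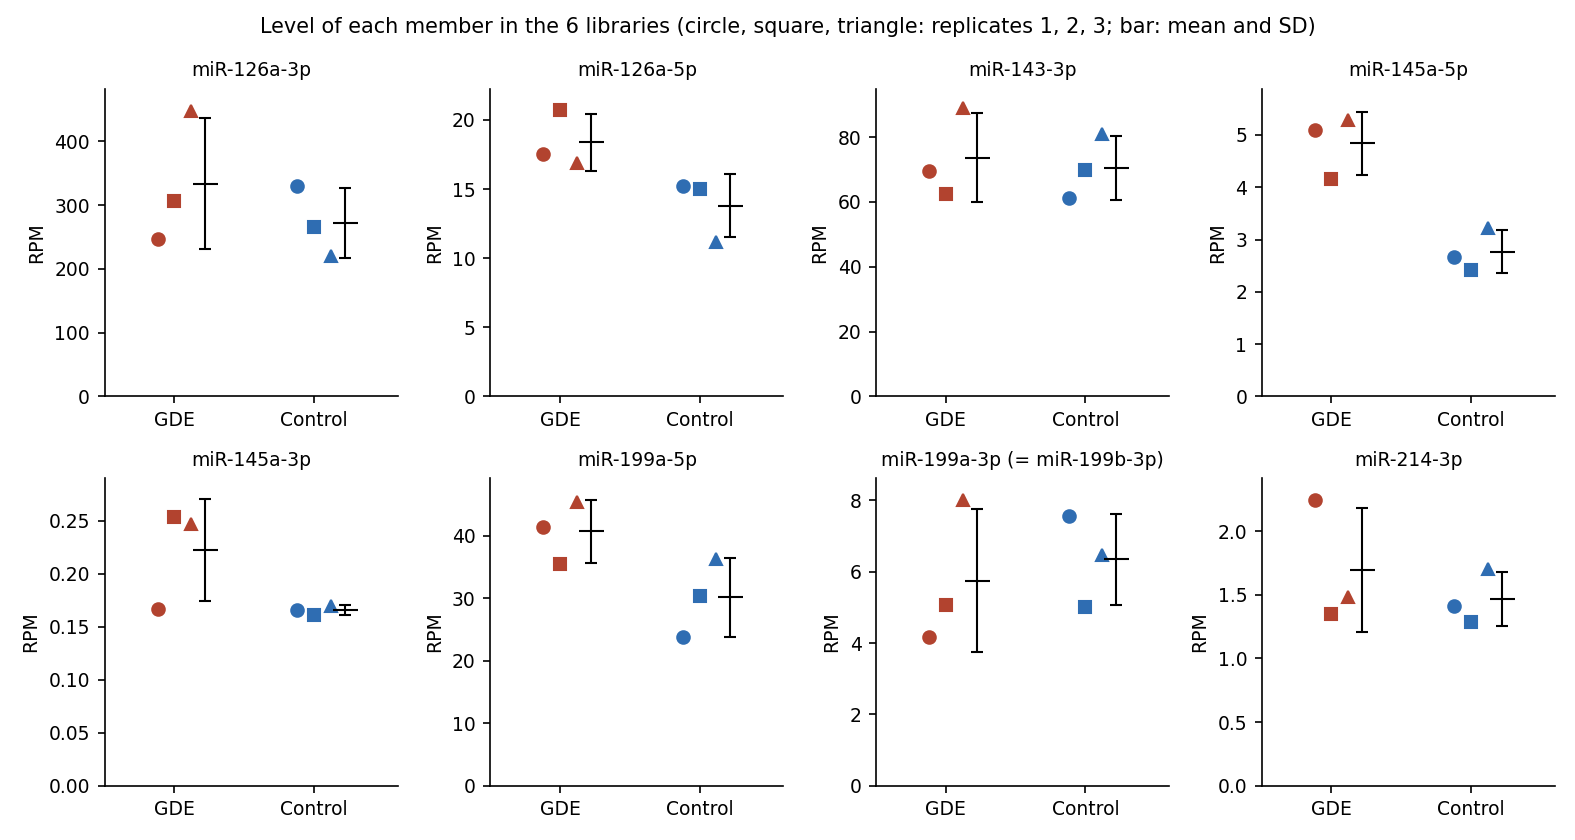
Level in RPM (vertical axes from 0) of the 8 member rows with values of their own, in the 3 GDE libraries (red) and the 3 Control libraries (blue). Symbols mark replicates 1, 2 and 3 and bars the mean and SD. miR-126a-5p and miR-145a-5p are the members whose groups do not overlap.

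Read together, 8 of the 9 rows passed the filter, which asked for 1 RPM in 3 libraries, miR-145a-3p being the exception. In limma none of the 8 had an adjusted p under 0.05, where 2 of all 649 tested miRNAs did (0.308%). By edgeR, DESeq2 and limma-voom on the recovered tags none of the 8 passed either. At an unadjusted p under 0.05 there was 1 member higher in GDE, miR-145a-5p, against 4.01% of all tested miRNAs, and 0 lower, against 4.62%. In either direction that was 8.63% of all. The members numbered 1 in edgeR (8.63% of all), 1 in limma-voom (7.86%) and 2 in DESeq2 (8.78%). The groups did not overlap with GDE higher for 2 of the 8, against 4.62% of all tested miRNAs, and with GDE lower for 0 of the 8, against 10.0%. The log2 fold was positive for 6 of the 8, with a median of 0.19, and for 38.8% of all tested miRNAs, with a median of -0.07. That share for all miRNAs moved to 47.0% when libraries were scaled to the sum of their miRNAs and to 52.7% with TMM scaling, while the members stayed at 6 of 8. The 2 negative ones are the identical rows of miR-199a-3p and miR-199b-3p. Values of these 8 rows describe libraries that share depth and preparation, and the rows are not replicates of a condition.

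**Figure D2:**
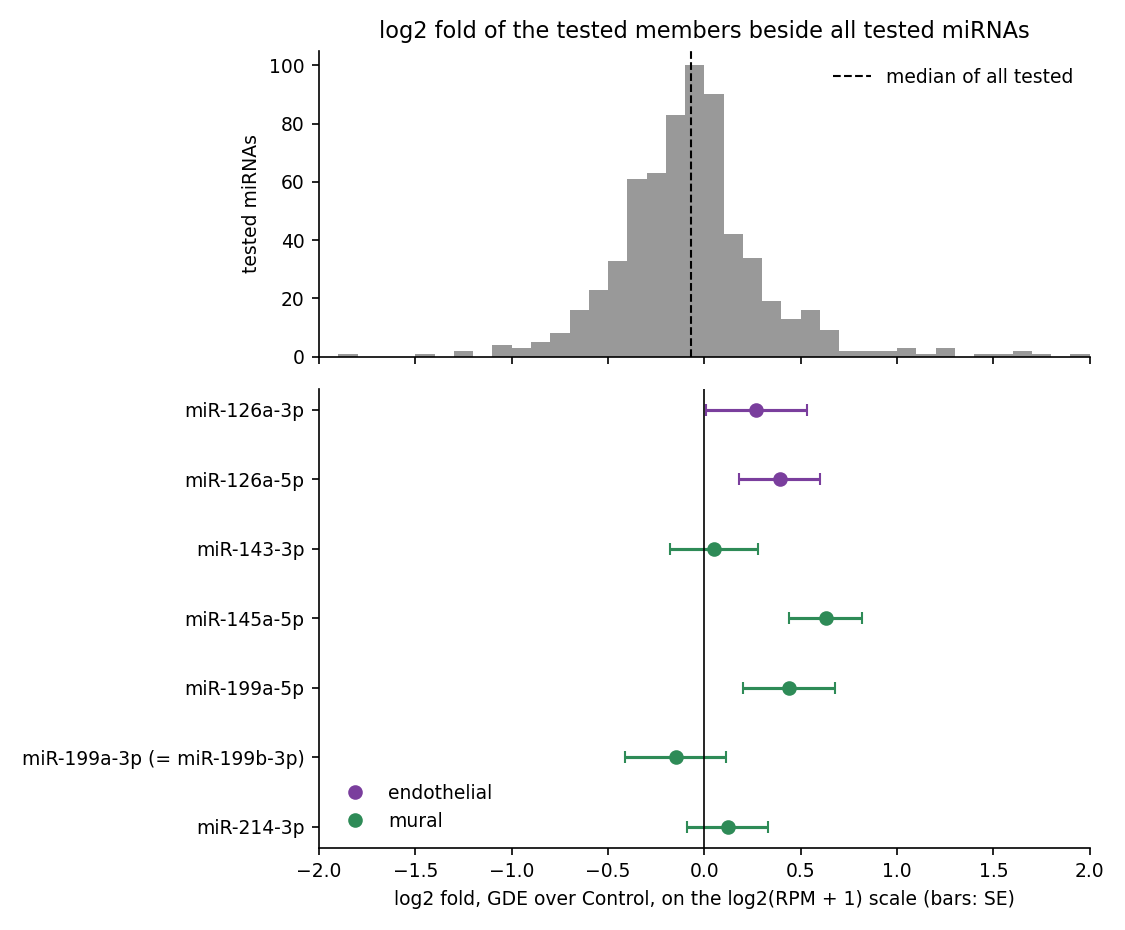
Top, number of tested miRNAs (vertical axis) by log2 fold of GDE over Control (horizontal axis, log2(RPM + 1) scale), with the median of all as a dashed line and 4 miRNAs beyond a size of 2 outside the axis. Bottom, the log2 folds of the tested members with SE, endothelial in purple and mural in green, from -0.15 for miR-199a-3p to 0.63 for miR-145a-5p.

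The endothelial members were set against the mural ones by their summed levels, counting the shared miR-199 3p row once. The endothelial sum was 265.0, 326.9 and 464.7 RPM in GDE, against 345.1, 280.1 and 231.8 RPM in Control. The mural sum was 122.6, 108.7 and 149.3 RPM in GDE, against 96.7, 109.0 and 128.8 RPM in Control. Both sums were highest in GDE replicate 3, and for both the groups overlapped. The ratio of the endothelial over the mural sum was 2.16, 3.01 and 3.11 in GDE, against 3.57, 2.57 and 1.80 in Control. Control replicates 1 and 3 held the extremes of this ratio, so the Control libraries spanned the whole range of the GDE ones. On the log2 scale the ratio was 1.45 ± 0.29 in GDE and 1.35 ± 0.49 in Control (SD, n = 3 each), a difference of 0.10 that is smaller than the SD of either group. This difference was not tested. All members together made up 0.15% to 0.254% of the RPM of the table in GDE and 0.139% to 0.159% in Control.

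**Figure D3:**
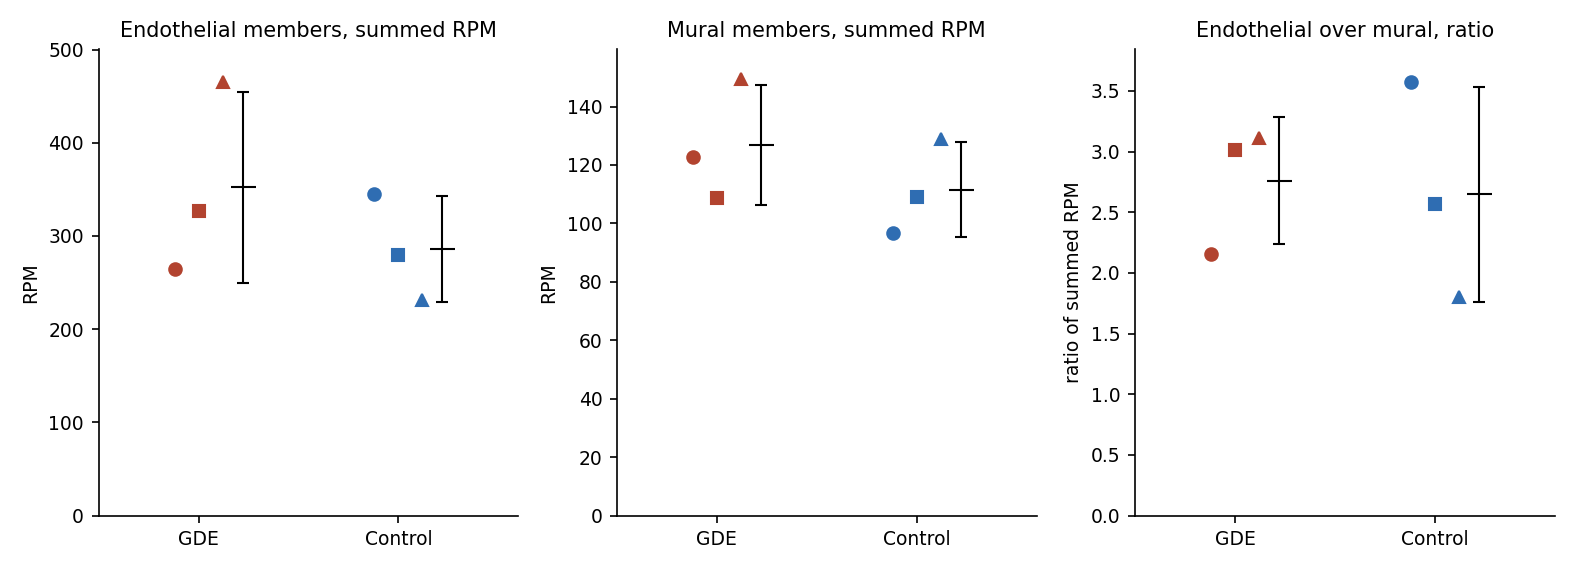
Summed RPM of the endothelial members, summed RPM of the mural members, and their ratio (vertical axes from 0) in each GDE library (red) and each Control library (blue). Symbols mark replicates 1, 2 and 3, bars the mean and SD. The groups overlap in all 3 panels, and Control replicates 1 and 3 hold the highest and the lowest ratio.

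Of the mural sum, miR-143-3p made up 56.8%, 57.5% and 59.5% in GDE, against 63.3%, 64.0% and 62.8% in Control. These shares did not overlap and were not tested, and how often such shares separate was not counted. They are made from the member values given above and are no separate result. The rest of the sum is largely miR-199a-5p, with miR-199a-3p and miR-145a-5p next, none of which passed the threshold. Within the endothelial class miR-126a-3p made up 93.4% to 96.4% of the sum in GDE and 94.6% to 95.6% in Control. In order of mean level over the 6 libraries, miR-126a-3p was followed by miR-143-3p, miR-199a-5p, miR-126a-5p, miR-199a-3p, miR-145a-5p, miR-214-3p and miR-145a-3p. Each stood above the next in all 6 libraries, with the exception of miR-199a-3p and miR-145a-5p, whose ranges overlapped and whose order turned in GDE replicate 1. The sequenced mature forms shown above are 22 or 23 bases long, so no length correction was made, and how readily each one enters a library was not measured.

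Members with a hairpin on a shared transcript were then compared by their ratio within a library, which does not depend on depth. miR-143-3p was 13.7, 15.1 and 16.8 times the level of miR-145a-5p in GDE, against 23.0, 28.8 and 25.0 times in Control. All GDE libraries lay below all Control libraries, at 15.2 ± 1.59 in GDE and 25.6 ± 2.94 in Control (SD, n = 3 each). The groups of miR-145a-5p alone did not overlap either, while those of miR-143-3p did. How often other pairs of miRNAs separate in this way was not counted. Among single tested miRNAs the groups did not overlap with GDE higher for 4.62% and with GDE lower for 10.0%. On the log2(RPM + 1) scale miR-145a-5p minus miR-143-3p was -3.67 ± 0.16 in GDE libraries and -4.24 ± 0.14 in Control libraries, higher in GDE by 0.58. The permutation p of that difference (exact, two-sided) was 0.1, which any full separation of 3 against 3 libraries gives. With a pseudocount of 10 RPM the difference was 0.17 and its exact permutation p 0.3, so on this scale its size depends on the pseudocount. The log2 folds of these miRNAs taken singly were 0.63 for miR-145a-5p and 0.05 for miR-143-3p.

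For miR-199a-5p and miR-214-3p the groups overlapped, and this ratio also holds the tags from Mir199a-1, which lies outside Dnm3os. miR-199a-5p was 18.3, 26.1 and 30.6 times the level of miR-214-3p in GDE, against 16.8, 23.5 and 21.3 times in Control, and the log2 difference of miR-214-3p over miR-199a-5p was -0.32 (exact permutation p = 0.3, two-sided, and 0.1 with a pseudocount of 10 RPM). This ratio rests on at most 27 tags of miR-214-3p per library. The partner arm miR-214-5p, which is no member, was at 2.09, 2.79 and 2.47 RPM in GDE, against 1.91, 2.02 and 1.96 RPM in Control. The 2 arms of this hairpin were thus at similar levels, with the 5p arm at 0.926 to 2.06 times the 3p arm over the 6 libraries.

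The copies of miR-199 could be compared through their 5p arms, which differ by the base named above. miR-199a-5p exceeded miR-199b-5p by 55.0, 27.9 and 50.1 times in GDE, against 9.83, 16.3 and 30.5 times in Control. miR-199b-5p itself was at 0.751, 1.27 and 0.907 RPM in GDE, against 2.41, 1.86 and 1.19 RPM in Control (SE 0.23 on a log2 fold of -0.50; adjusted p = 0.567 in limma). Its tags came to 35 in GDE and 66 in Control, and GDE replicate 2 lay above Control replicate 3. A read of miR-199a-5p with an error at that base would be counted for miR-199b-5p, and how the authors' assignment treated mismatches is not given in the sources used here.

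Arm usage was taken as log2 of the 5p arm minus log2 of the 3p arm and fitted in limma for the 155 precursors whose arms both passed the filter. None had an adjusted p under 0.05 (0 of 155, or 0%), 5.81% had an unadjusted p under 0.05, and the groups did not overlap with GDE higher for 5.81% and with GDE lower for 5.16%. They overlapped for all 4 precursors of the members that could be fitted, miR-126a, miR-199a, miR-199b and miR-214. The ratio fitted for miR-199b does not measure its own arm usage, since its 3p row also holds the tags of miR-199a. miR-126a was strongly weighted to its 3p arm in every library, by a log2 ratio of -3.74, -3.82 and -4.65 in GDE, against -4.35, -4.05 and -4.18 in Control. GDE replicate 3 was the lowest of all, and the difference was 0.12 (SE 0.29; limma, adjusted p = 0.953). miR-199a was weighted to its 5p arm, by 3.03, 2.58 and 2.37 in GDE, against 1.53, 2.38 and 2.32 in Control, and this ratio is a lower bound on the weighting, since the 3p row also holds the tags of miR-199b. The difference was 0.58 (SE 0.31; adjusted p = 0.753 in limma), and 0.31 without Control replicate 1, which was the lowest. GDE replicate 3 lay just under Control replicate 2. For miR-145a only the 5p arm was tested, and for miR-143 only the 3p arm has a value.

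**Figure D4:**
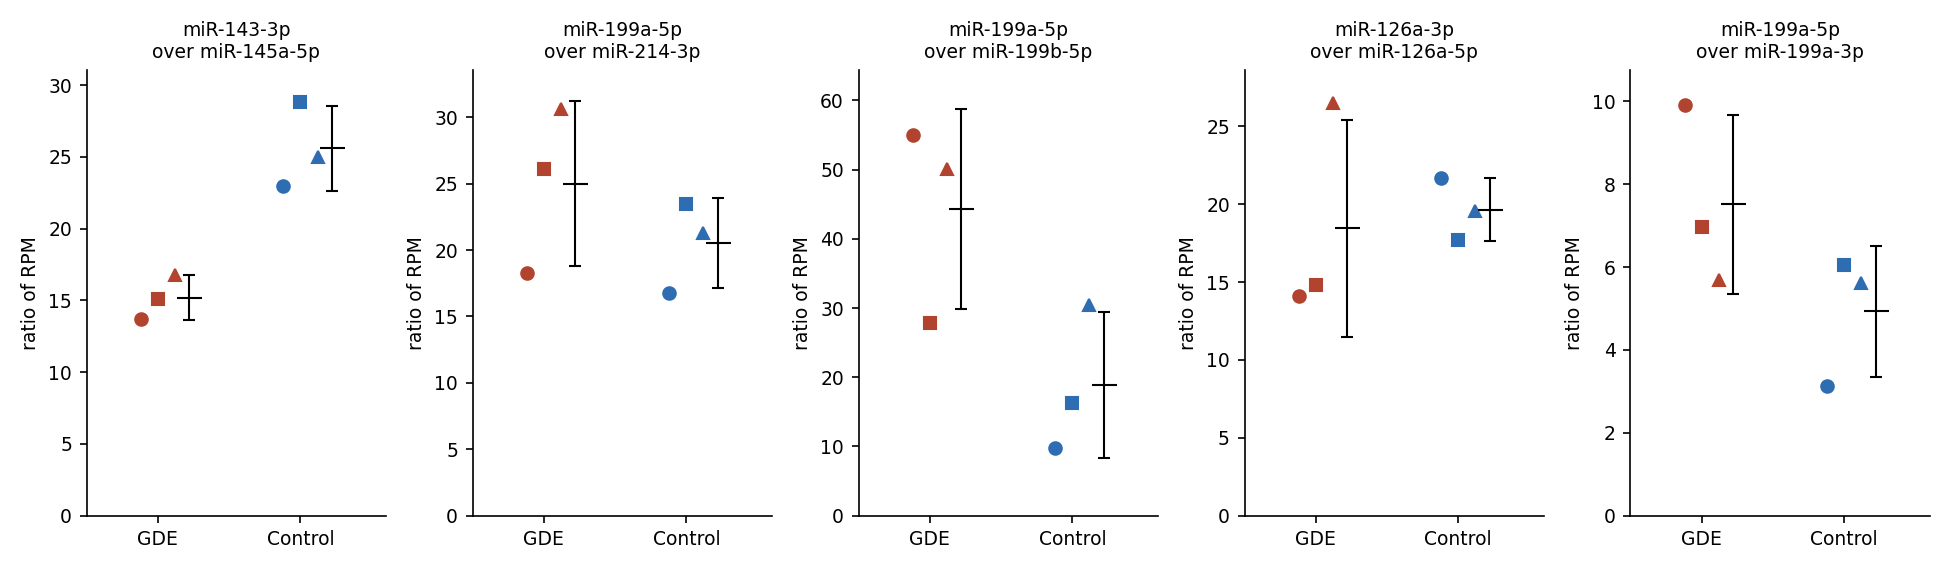
Ratio of RPM within each library (vertical axes from 0) for 5 pairs of miRNAs, with GDE in red and Control in blue, symbols for replicates 1, 2 and 3, and bars for the mean and SD. The ratio of miR-143-3p over miR-145a-5p is 13.7 to 16.8 in GDE and 23.0 to 28.8 in Control, while the groups overlap for the other 4 pairs.

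Across libraries the members did not move as a block. GDE replicate 3 was the highest library for miR-126a-3p, miR-143-3p, miR-145a-5p, miR-199a-3p and miR-199a-5p, by 0.31 to 0.60 above each one's mean on the log2 scale, but not for miR-126a-5p or miR-214-3p. Control replicate 1 was the lowest for miR-143-3p and miR-199a-5p, and above the mean for miR-126a-3p and miR-199a-3p. Control replicate 3 was the lowest for both arms of miR-126a, at -0.42 and -0.46, and above the mean for miR-143-3p at 0.18. The within-group SD of miR-126a-3p on the log2 scale, 0.37, exceeded that of 36 of the 50 tested miRNAs nearest to it in level, while that of miR-145a-5p, 0.16, exceeded that of only 3 of its 50.

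Markers of blood cells, microglia, choroid plexus and ependyma are given beside the members here. Microglia and leukocytes share a list, which does not tell them apart. None of these markers passed the threshold. The groups did not overlap with GDE higher for 3 of 8 tested miRNAs of the microglia and leukocyte list and 1 of 2 of the erythroid list, against 4.62% of all tested miRNAs. The red cell miRNA miR-451a was at 63.4, 74.1 and 58.4 RPM in GDE, against 29.9, 52.8 and 20.8 RPM in Control. The myeloid miRNA miR-223-3p was at 66.7, 96.0 and 72.3 RPM in GDE, against 16.1, 54.3 and 19.4 RPM in Control, and the lymphocyte miRNA miR-150-5p, named after its values were seen, at 233.3, 357.9 and 303.9 RPM in GDE, against 90.3, 186.8 and 103.2 RPM in Control. For each of these 3 every GDE library was above every Control library, with adjusted p of 0.551 for miR-451a and miR-223-3p and 0.51 for miR-150-5p in limma. On the microglia and leukocyte list 6 of the 8 tested miRNAs had positive log2 folds and 2 negative ones, with a median of 0.73. At an unadjusted limma p under 0.05 there were 3 of these 8, against 8.63% of all tested miRNAs. miR-142a-3p of that list, also without overlap, averaged 12.9 RPM in GDE libraries and 4.78 RPM in Control libraries. Some others of the leukocyte and erythroid lists were level or lower in GDE. miR-486a-5p of red cells averaged 15.6 RPM in GDE libraries and 15.0 RPM in Control libraries. The mean of miR-155-5p, of activated leukocytes, was 90.6 RPM in GDE libraries and 108.2 RPM in Control libraries, and that of miR-21a-5p 4155 RPM in GDE libraries and 4719 RPM in Control libraries. Of the 5 miRNAs of the choroid plexus and ependyma list 3 had positive and 2 negative folds. The groups did not overlap with GDE higher for 1 of these 5, against 4.62% of all tested miRNAs, and with GDE lower for 1, against 10.0%. miR-204-5p of the choroid plexus was at 688.0, 384.5 and 973.5 RPM in GDE, against 154.7, 325.2 and 519.1 RPM in Control, with overlapping groups. miR-34b-3p of ciliated cells was lower in every GDE library, at 637.8, 672.9 and 630.8 RPM in GDE, against 1099.0, 936.3 and 674.6 RPM in Control (adjusted p = 0.561 in limma). miR-142a-3p, miR-486a-5p, miR-155-5p, miR-21a-5p and miR-34b-3p were likewise named after their values were seen. Over whole lists, the erythroid list (4 of 4 in the table) summed to 73.9 to 93.6 RPM in GDE and 35.0 to 69.1 RPM in Control. The microglia and leukocyte list (8 of 8) summed to 6285 to 7442 RPM in GDE and 6521 to 7289 RPM in Control, with miR-21a-5p its largest part. The choroid plexus and ependyma list (5 of 5) summed to 1976 to 2315 RPM in GDE and 1950 to 2387 RPM in Control. No row of these lists was at 0 in all libraries. The part of these cells in the values of the vascular members was not tested.

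**Figure D5:**
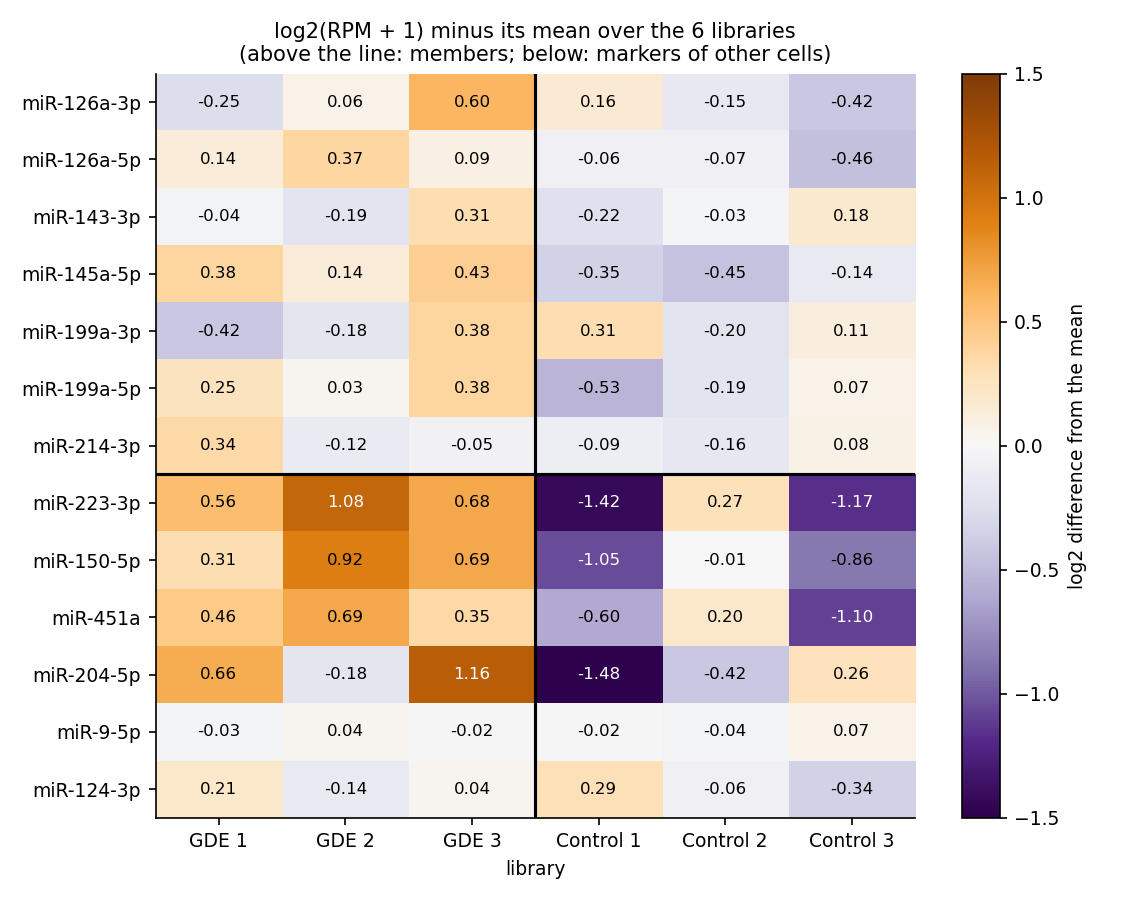
Difference of log2(RPM + 1) from its mean over the 6 libraries (colour and printed value) for the tested members above the line and for markers of other cells below it, with GDE libraries on the left and Control libraries on the right. miR-223-3p, miR-150-5p and miR-451a are above their mean in all 3 GDE libraries, while among the members this holds for miR-126a-5p, miR-145a-5p and miR-199a-5p.

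A list of 23 other miRNAs studied in blood vessels gave 21 tested, with 11 positive and 10 negative log2 folds, a median of 0.03 and 0 past the threshold in limma. At an unadjusted p under 0.05 there were 2 of the 21, against 8.63% of all tested miRNAs. Those 2, named after their values were seen, were the miR-10 pair, and higher levels in GDE were not particular to this list. Other miRNAs of the Hox clusters, not on this list and likewise named after their values were seen, also had positive log2 folds. These were 0.84 for miR-615-3p, 1.09 for miR-196b-5p and 0.43 for miR-196a-5p, none past the threshold in limma. miR-10a-5p was at 9.43, 7.87 and 23.9 RPM in GDE, against 2.49, 7.59 and 5.62 RPM in Control (SE 0.46 on a log2 fold of 1.18; adjusted p = 0.561 in limma). miR-10b-5p was at 3.59, 2.71 and 4.54 RPM in GDE, against 2.49, 1.61 and 2.38 RPM in Control (SE 0.23 on a log2 fold of 0.54; adjusted p = 0.561 in limma). Their groups did not overlap, which with GDE higher held for these 2 of the 21, against 4.62% of all tested miRNAs, and with GDE lower for 0, against 10.0%. The 6 most abundant of the list had overlapping SDs. The mean of miR-23a-3p was 2841 ± 354.4 RPM in GDE libraries against 2986 ± 303.1 RPM in Control libraries, that of miR-27a-3p 2537 ± 64.9 RPM in GDE libraries against 2674 ± 159.1 RPM in Control libraries, and that of miR-24-3p 1952 ± 633.5 RPM in GDE libraries against 2619 ± 635.1 RPM in Control libraries (SD, n = 3 each). For miR-92a-3p it was 2038 ± 151.0 RPM in GDE libraries against 1926 ± 884.0 RPM in Control libraries, for miR-322-5p 1506 ± 433.4 RPM in GDE libraries against 2065 ± 618.9 RPM in Control libraries, and for miR-497a-5p 1023 ± 140.6 RPM in GDE libraries against 1054 ± 276.6 RPM in Control libraries. Of the muscle miRNAs, miR-1a-3p did not exceed 0.751 RPM and miR-133a-3p did not exceed 0.495 RPM in any library.

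The miRNAs whose values over the 6 libraries were most like those of a member were named by the root mean square difference of log2(RPM + 1), each centred on its own mean, among 561 other tested miRNAs with a miRBase name. For miR-126a-3p these were miR-450a-5p at 0.077, miR-351-5p at 0.145, miR-363-3p at 0.167, miR-344f-5p at 0.187 and miR-652-5p at 0.19, against a median of 0.439 over all 561. The other arm, miR-126a-5p, was not among the nearest 5. For miR-143-3p they were miR-194-2-3p at 0.151, miR-3109-5p at 0.154, miR-1193-3p at 0.158, miR-194-5p at 0.164 and miR-99b-5p at 0.168, against a median of 0.377. miR-143-3p itself lay 0.19 from a flat line by the same measure, so its nearest miRNAs were little closer to it than a constant would be.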

How the data were processed

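The deposited table gives 1 value per mature miRNA and library, which the file headers call expression only. The values were read as RPM that the authors had scaled to all tags of a library, since 100% of the nonzero values were whole multiples of 1 step per library (0.0807 to 0.0851 RPM) within 0.1 tags. The submitters' processing notes name Bowtie2 and mm10. Per the labels' protocols RNA was extracted with TRIzol and made into libraries with the MGIEasy Small RNA kit. The sources used here do not give read trimming, molecular identifiers or how reads matching several miRNAs were assigned. PCR reads are not independent molecules, so intervals cover counting error only. A count of 0 allows up to 3 tags, or 0.242 to 0.255 RPM.

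Groups were taken from the library titles. The main test was limma 3.58.1 (R 4.3.3) with a trend on log2(RPM + 1) over 649 miRNAs that reached 1 RPM in 3 libraries, two-sided, with Benjamini-Hochberg adjustment at 0.05. Folds are GDE over Control. Arm ratios were fitted in limma without a trend. On simulated data the fits returned the planted folds on average, within a set tolerance. That check does not show how often a real difference would pass the threshold. Alternatives were pseudocounts of 0.1 and 10 RPM, other filters and scalings, edgeR 4.0.16, DESeq2 1.42.0 and limma-voom on the recovered tags, a block on the replicate number and each library left out. edgeR and voom used the recovered depth as library size. Single values had exact permutation tests (scipy 1.17.1). Replicates differed by more than sampling noise (chi-square per degree of freedom 39.1 to 139), so each counted once. The p-values set a group difference against the spread between these libraries. In limma this spread is drawn toward that of the other rows in the fit.

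Named miRNAs were the members, partner arms, seed mates, the 5 nearest to miR-126a-3p and miR-143-3p, the 6 most abundant of the vessel list and the defining markers of other cells. The members and lists were chosen with earlier results of these data known. Sequences and coordinates are from RefSeq (GRCm38.p6) and annotation from GENCODE M21 (GRCm38).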

Additional observations from a re-analysis of the deposited data

How the results depend on the processing

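Of 124 repeats of the member folds, 119 kept direction and 5 reversed, with the identical rows of miR-199a-3p and miR-199b-3p both counted. No member passed the threshold in the main fit or in any repeat. With any library left out, the log2 fold of miR-143-3p was -0.09 to 0.16 (-0.09 without GDE replicate 3, -0.04 without Control replicate 1), that of miR-199a-3p and miR-199b-3p -0.37 to 0.03 and that of miR-214-3p -0.03 to 0.21, the reversals of these coming without GDE replicate 1. The arm ratio difference of miR-126a was -0.04 to 0.41, reversing without GDE replicate 1 (-0.04) or 2 (-0.00) and at -0.01 with a pseudocount of 10 RPM, and that of miR-214 -0.06 to 0.32, reversing without GDE replicate 2. The cause was not tested. Over all miRNAs, 1 passed with at least 100 tags in 3 libraries, where 357 were tested, 7 passed in DESeq2, none a member, and 2 to 3 with any library left out. With no filter, 1 arm ratio passed. The number of members with a positive fold was 5 to 7 with any library left out, the endothelial over mural difference -0.15 to 0.34, that of miR-145a-5p over miR-143-3p 0.51 to 0.66 and that of miR-214-3p over miR-199a-5p -0.45 to -0.18. The difference of miR-145a-5p over miR-143-3p moved more with the pseudocount, to 0.73 with 0.1 RPM and 0.17 with 10 RPM. Same-numbered libraries did not deviate together (correlations of -0.03, -0.12 and -0.03). These few correlations cannot show whether a number marks libraries that belong together. With a replicate block 2 miRNAs and 0 arm ratios passed, the endothelial over mural difference was 0.10, and the exact sign-flip p of both pairs of members was 0.25, the smallest that 3 pairs allow. Members under 10 RPM rest on 2 to 97 tags per library, which limits them.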
